A study of Mus musculus with 12 samples.

Results

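The carbonic anhydrase genes Car2, Car3, Car4, Car8, Car9, Car12, Car13 and Car14 were followed across mouse dermis of 2 labelled body sites and 2 ages after birth. They were chosen by name from the family, with results of these arrays already known. Only probe sets annotated to a single gene were used, for these 8 and for the other family genes alike. All 8 were measured, by 18 probe sets, among 18193 genes and 34945 probe sets with 1 gene symbol. The 10 other family genes on the array are Car1, Car5a, Car5b, Car6, Car7, Car10, Car11, Car15, Ptprg and Ptprz1, and they were used for comparison.

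Carbonic anhydrases speed the conversion of carbon dioxide and water into bicarbonate and a proton, most with a zinc ion in the active site. Members differ mainly in where they work: some lie in the cytosol, some in mitochondria, some are tied to the cell surface and 1 is secreted. Cells use them to move carbon dioxide, to set the acidity inside and outside the membrane, and to hand bicarbonate to enzymes that build it into new molecules, including fatty acids in fat cells. A few family members have lost the catalytic activity and act by binding other proteins.

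There were 12 Affymetrix MG430.2A arrays, 3 for each of 4 groups: tail skin dermis and back skin dermis 5 days after birth (P5 Tail and P5 Back), and both 1 day after birth (P1 Tail and P1 Back). All mice carried the C57Bl6/CBA F1 background, no transgene or treatment is named for them, and the RNA of each group came from 3 mice. Tail skin was loosened with EDTA and back skin with dispase and trypsin before the dermis was peeled off and digested into single cells, a protocol worded for P1 skin. This difference in handling and the difference in site cannot be told apart. The dermis was not sorted, so fibroblasts, fat, muscle, vessels, follicles and remaining epidermis can all contribute RNA. Fewer cells of a type and less RNA per cell cannot be told apart in such samples.

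The values are log2 values centred on each probe set's median over the 12 arrays, so 0 marks the middle array and no level of expression is kept. Genes cannot be ranked by level, and a signal over background cannot be given. A gene's value is the mean of its probe sets. Throughout, SE is the standard error from 1 limma fit to all 12 arrays, and adjusted p-values are from the same fit with Benjamini-Hochberg adjustment over the 18193 genes.

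The site labels went against the posterior Hox genes, which mark the tail end of the body axis. The mean of the 10 measured posterior Hox genes lay between -0.81 and -0.67 on the 3 P5 Tail arrays, and between 0.71 and 0.79 on the 3 P5 Back arrays. It lay between -0.83 and -0.81 on the P1 Tail arrays, and between 0.70 and 0.83 on the P1 Back arrays. Hoxd11 was lower in the arrays labelled tail by 3.28 at P5 (adjusted p = 5.7e-07) and by 3.09 at P1 (adjusted p = 6.8e-07). At each age 7 of the 10 genes were lower on the arrays labelled tail, and 0 were higher. The groups are therefore named by their labels, as the arrays labelled tail or back, and whether the labels were exchanged was not tested. All differences between sites are labelled tail minus labelled back, and for genes of fat this direction is opposite to the one the study describes. Among the arrays, P5 Tail replicate 2 stood apart, with an SD over probe sets of 0.496 against 0.227 to 0.338 on the other 11. P1 Back replicates 1 and 6 had high cartilage genes, with means of 2.04 and 1.76 over 15 markers, against a range from -0.37 to 0.84 on the other 10 arrays. Fits without both keep replicate 5 alone in P1 Back, so a call lost in them can come from having fewer arrays.

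Car13, Car1, Car3 and Car2 lie side by side on chromosome 3 with 0 protein-coding genes between neighbours, and the other members are spread over chromosomes 3, 4, 9 and 11. Promoter windows in RefSeq (GRCm38.p6) were matched for 4 of the 8 members, Car4, Car9, Car12 and Car14. The 250 bases before the start of transcription are shown for Car4, the cell-surface enzyme with the widest difference between sites among these 4, for Car9, known as a hypoxia target, and for Car14, which shares a motif with Car9. Capitals mark ACGTG, the core of the hypoxia response element, read on either strand, where its complement is CACGT.
Car4, chr11:84957504-84957753, plus strand: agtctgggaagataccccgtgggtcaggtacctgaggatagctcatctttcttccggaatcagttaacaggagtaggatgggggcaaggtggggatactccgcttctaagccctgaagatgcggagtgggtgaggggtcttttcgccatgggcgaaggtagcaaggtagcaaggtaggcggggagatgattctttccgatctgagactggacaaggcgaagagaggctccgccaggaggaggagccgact
Car9, chr4:43506776-43507025, plus strand: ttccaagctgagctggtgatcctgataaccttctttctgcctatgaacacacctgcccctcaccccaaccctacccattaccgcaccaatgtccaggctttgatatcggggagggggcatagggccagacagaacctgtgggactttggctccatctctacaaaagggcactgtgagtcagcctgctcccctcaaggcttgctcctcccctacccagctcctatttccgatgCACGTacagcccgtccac
Car14, chr3:95904686-95904935, minus strand: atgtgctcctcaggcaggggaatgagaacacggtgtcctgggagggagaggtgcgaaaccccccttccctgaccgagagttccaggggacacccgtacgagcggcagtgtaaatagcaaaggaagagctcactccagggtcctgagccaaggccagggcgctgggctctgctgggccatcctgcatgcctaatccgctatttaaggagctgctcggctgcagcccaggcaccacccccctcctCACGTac
The core began 18 bases before the start in Car9 and 7 bases before it in Car14, and it was not found in the windows of Car4 and Car12. Of all 32851 mouse promoter windows of this length, 16.6% held it. AGGTCA, the short repeat unit read by PPAR family receptors of fat cells, was searched for on both strands and does not overlap the other motif; it was in none of the 4 windows and in 14.0% of all. A match describes letters and is not a binding site.

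Car3 had the widest range of the 8, at 4.24 on the log2 scale. It encodes a cytosolic enzyme of low activity that is abundant in fat and slow muscle. At P5 its values were -0.22, -0.73 and 0.15 in P5 Tail, against -0.66, 0.08 and 0.41 in P5 Back, and these overlapped. At P1 they were 2.25, 1.60 and 2.20 in P1 Tail, against -1.47, -1.99 and -1.32 in P1 Back. The P1 Tail arrays were the highest 3 of all 12 and the P1 Back arrays the lowest 3. Group means were -0.27 ± 0.44 in P5 Tail, -0.06 ± 0.55 in P5 Back, 2.02 ± 0.36 in P1 Tail, against -1.59 ± 0.35 in P1 Back (SD, n = 3 each). The difference between sites was 3.61 at P1 (SE 0.29), or 12.2-fold, and -0.21 at P5 (SE 0.29). With age, Car3 moved in opposite directions at the sites, by -2.28 in the arrays labelled tail and by 1.54 in those labelled back, and the site difference at P5 minus that at P1 was -3.82 (SE 0.41).

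Car3 was measured by 4 probe sets, which gave the same picture at P1. Their site differences there were 4.43, 3.81, 3.28 and 2.92, and each pair correlated over the arrays with r between 0.81 and 0.97. At P5 they split, at 0.18 for a pair of them and at -0.35 and -0.86 for the others, and all overlapped between groups. The probe set with the largest P1 difference carries the suffix of sequence shared with other transcripts, and without it the difference of site differences was -3.33.

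Car4 showed the same ordering of sites at both ages. The gene encodes an enzyme held on the outer face of the membrane by a lipid anchor, known from capillary walls, kidney and lung. Its values were 1.18, 0.11 and 0.51 in P5 Tail, against -0.69, -0.11 and -0.35 in P5 Back. They were 1.43, 0.55 and 0.97 in P1 Tail, against -1.03, -1.34 and -1.21 in P1 Back. At each age every array labelled tail was above every array labelled back. The differences were 0.99 at P5 (SE 0.26), or 1.98-fold, and 2.17 at P1 (SE 0.26), or 4.51-fold. By age the arrays labelled tail overlapped, with a difference of -0.38, and those labelled back did not, with P5 Back higher than P1 Back by 0.81. Its probe sets, 1 with a shared-sequence suffix and 1 without, gave 0.72 and 1.25 at P5, and 1.35 and 3.00 at P1.

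**Figure D1:**
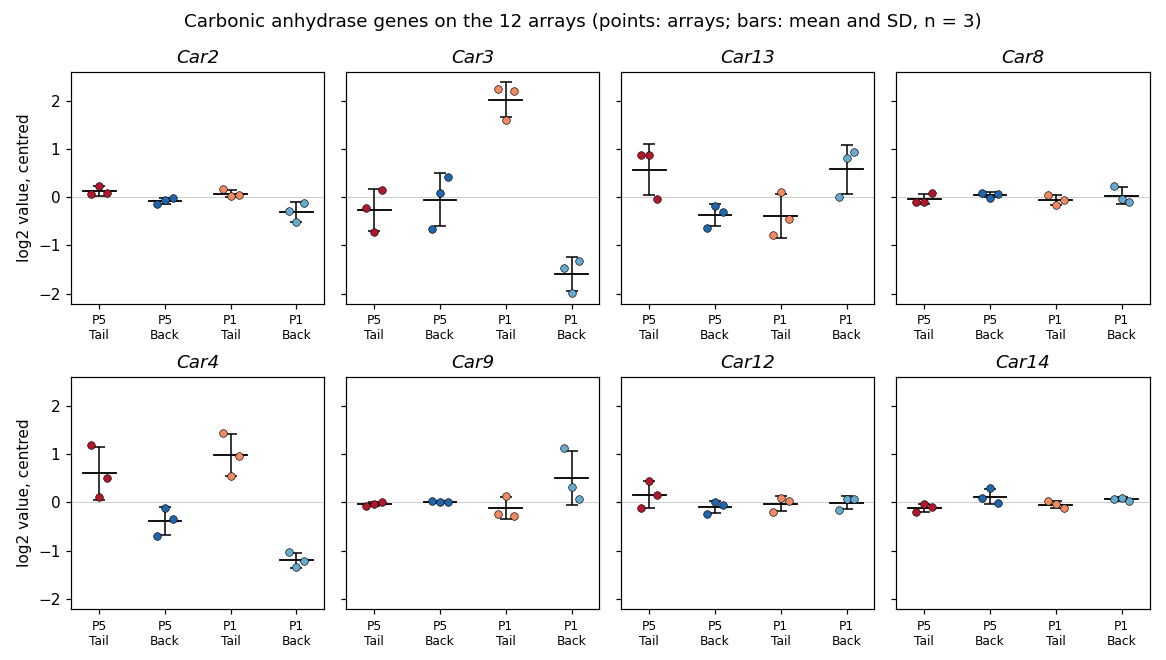
Centred log2 values (vertical axes) of the 8 members on the 12 arrays, in the groups P5 Tail, P5 Back, P1 Tail and P1 Back; points are arrays, the long bar is the mean and the error bar the SD (n = 3). The cytosolic genes and Car8 are in the upper row and the membrane-bound ones in the lower; Car3 spans 4.24 and Car4 2.77, while Car8 spans 0.40.

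The genes closest to Car3 and Car4 over the 12 arrays were genes of fat. For Car3 they were Lpl, the lipase that frees fatty acids from blood lipids (r = 0.976), Fabp4, a fatty acid carrier of fat cells (r = 0.966), and G0s2, an inhibitor of fat breakdown (r = 0.954). For Car4 they were Rbp4, a retinol carrier made in fat and liver (r = 0.986), Nnmt, a nicotinamide methyltransferase (r = 0.985), and Gpd1, which makes glycerol phosphate (r = 0.981). These correlations describe 12 arrays that share 4 groups. Car3 and Car4 correlated with each other at r = 0.83.

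Markers of fat cells were higher in P1 Tail than in P1 Back, as Car3 and Car4 were, for 11 of the 16 measured. The mean of the 16 lay between 0.07 and 0.50 in P5 Tail, against between -0.35 and -0.05 in P5 Back, and between 0.66 and 1.07 in P1 Tail, against between -0.74 and -0.68 in P1 Back. At P5 the arrays labelled tail had 4 of the 16 higher and 0 lower, with a median difference of 0.54 against -0.02 over all genes, and the list means did not overlap. Neither did the values of Car4, while those of Car3 did. The largest of these was Pparg, the receptor that drives fat cell formation, at 1.30 (adjusted p = 0.00027). At P1 the arrays labelled tail had 11 higher and 0 lower, with a median of 1.67 against -0.04, led by Adipoq, which encodes the fat hormone adiponectin, at 5.23 (SE 0.28, adjusted p = 5.0e-07), and Lep, encoding leptin, at 2.93 (SE 0.21, adjusted p = 1.0e-05). With age, 6 fell and 1 rose in the arrays labelled tail, where Car3 was lower by 2.28 and Car4 overlapped, and 6 rose and 1 fell in those labelled back. Without P1 Back replicates 1 and 6 the median between sites at P1 was 1.61. By age in those labelled back it was 0.41, in place of 0.48.

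Skeletal muscle and capillaries, where Car3 and Car4 are also known, were followed by their own markers. The mean of 20 skeletal muscle markers ranged from -0.60 to -0.24 in P5 Tail, from -1.21 to 1.11 in P5 Back, from 0.46 to 1.57 in P1 Tail, against from -1.22 to 0.48 in P1 Back. In limma 0 of these 20 were called between sites at either age, with 0 at P5 and 8 at P1 at an unadjusted p under 0.05. Without P1 Back replicates 1 and 6 their median between sites at P1 was 1.28 in place of 0.63. In P5 Tail, where Car3 was lower than in P1 Tail, the means of the muscle list lay below all those of P1 Tail. There 3 of the 20 were lower, Tnni2 (-1.23), Actn3 (-0.65) and Pvalb (-0.40), 13 were at an unadjusted p under 0.05, and the median was -1.18, against -0.52 for the adipocyte list. Each of these 3 calls was lost on leaving out P1 Tail replicate 4 (adjusted p of 0.19, 0.12 and 0.16). The mean of 13 blood endothelium markers ranged from -0.29 to 0.32 in P5 Tail, from 0.01 to 0.12 in P5 Back, from -0.16 to 0.50 in P1 Tail, against from -0.09 to 0.17 in P1 Back, and 0 were called in any comparison (0 to 4 at an unadjusted p under 0.05). The part of fat, muscle or vessel cells in the values of Car3 and Car4 was not tested.

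**Figure D2:**
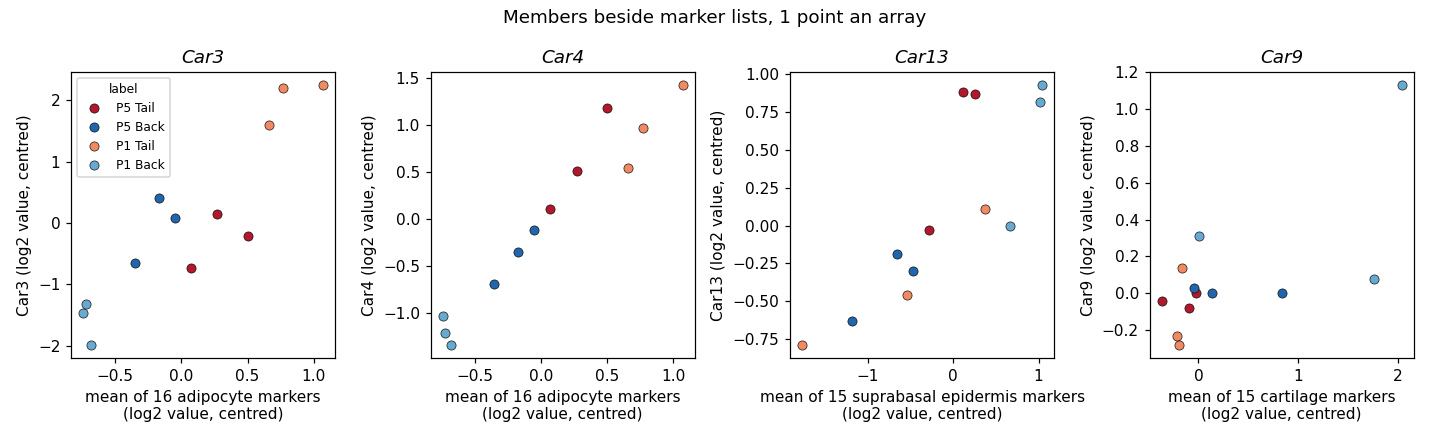
Each point is 1 array: the horizontal axis is the mean centred log2 value of a marker list and the vertical axis that of the member, for Car3 and Car4 beside 16 adipocyte markers, Car13 beside 15 suprabasal epidermis markers and Car9 beside 15 cartilage markers. P1 Tail arrays are highest and P1 Back arrays lowest on both axes for Car3, and a single P1 Back array, replicate 1, holds Car9 at 1.13.

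Car13 ran in opposite directions at the sites and ages. The gene encodes a cytosolic enzyme of broad tissue distribution. Its values were 0.87, 0.88 and -0.03 in P5 Tail, against -0.63, -0.19 and -0.30 in P5 Back, which did not overlap, although P5 Tail replicate 4 was close to the P5 Back arrays. They were -0.79, 0.11 and -0.46 in P1 Tail, against 0.00, 0.82 and 0.93 in P1 Back, which overlapped through P1 Tail replicate 5 and P1 Back replicate 1. The site difference was 0.94 at P5 and -0.96 at P1 (SE 0.30 each), and the first minus the second was 1.91 (SE 0.42), or from 1.70 to 2.21 with 1 array left out. All 3 probe sets had this pattern, at 0.85 to 1.08 for P5 and -1.10 to -0.81 for P1, with r between 0.75 and 0.96.

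The genes most like Car13 were Urah, a hydrolase of urate breakdown (r = 0.958), Cldn23, a tight junction claudin (r = 0.947), and Tmem40, a membrane protein (r = 0.940). The 15 suprabasal epidermis markers, keratins and cornified envelope genes of the upper epidermis, had means of 0.25, 0.11 and -0.28 in P5 Tail, against -1.19, -0.66 and -0.47 in P5 Back, and of -1.77, 0.37 and -0.54 in P1 Tail, against 0.67, 1.02 and 1.04 in P1 Back. The arrays labelled tail had 5 of them higher and 1 lower at P5 (median 1.18). At P1 they had 0 higher and 2 lower (median -0.91, or -1.08 without P1 Back replicates 1 and 6). For the difference of site differences 6 were higher and 0 lower, and of 10 basal epidermis markers 6 were higher and 0 lower. Without P1 Back replicates 1 and 6 the medians for this quantity were 2.23 and 0.99, in place of 2.17 and 0.95. Col17a1, a collagen of the basal layer's anchoring junctions, had a difference of site differences of 2.53 (SE 0.27, adjusted p = 0.00071), with the sign of Car13. Krt2, a keratin of the upper layers, had site differences of -3.96 at P5 and -7.57 at P1, and the first minus the second was 3.61 (SE 0.40, adjusted p = 0.00079). In these comparisons the called epidermis markers had the sign of Car13, except Krt2 at P5. Krt2 was lower there in the arrays labelled tail, while Car13 was higher. The part of epidermis in the values of Car13 was not tested.

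Car2 differed little, but in 1 direction. It encodes the cytosolic enzyme of high activity found in red blood cells, osteoclasts, kidney and many epithelia. Its values were 0.07, 0.24 and 0.08 in P5 Tail, against -0.15, -0.06 and -0.02 in P5 Back, and 0.16, 0.02 and 0.05 in P1 Tail, against -0.28, -0.52 and -0.11 in P1 Back. The arrays labelled tail were all above those labelled back at each age, by 0.21 at P5 and 0.38 at P1 (SE 0.11 each). The genes most like it were Sgtb (r = 0.913), Rgl2 (r = 0.899) and Sash1 (r = 0.892). The mean of 10 erythroid markers stayed between -0.10 and 0.17 on all arrays, and 1 of them was called, Slc4a1, the anion exchanger of red cells, higher in P5 Tail than in P1 Tail by 0.74 (adjusted p = 0.049). The mean of 10 osteoclast markers stayed between -0.18 and 0.21, while its members went both ways. Between sites at P5, Acp5 was higher in the arrays labelled tail by 0.95 and Nfatc1 by 0.68, and Ctsk, the collagen protease of osteoclasts, was lower by 0.96. The part of these cells in the values of Car2 was not tested. A single probe set measured Car2, so probe sets could not be compared.

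Car9 encodes a transmembrane enzyme with its active site outside the cell, and it is among the best known targets of the hypoxia-inducible factor HIF. It was flat at P5, at -0.08, -0.04 and 0.00 in P5 Tail, against 0.03, 0.00 and 0.00 in P5 Back. At P1 its values were -0.23, 0.14 and -0.28 in P1 Tail, against 1.13, 0.31 and 0.08 in P1 Back, which overlapped. The site difference of -0.63 at P1 (SE 0.21) rested largely on P1 Back replicate 1 and was -0.32 without it. Likewise P5 Back was lower than P1 Back by 0.50, or by 0.19 without that array. The genes most like Car9 were Csrnp3 (r = 0.918), Tacr3 (r = 0.908) and Epyc (r = 0.863), the last a proteoglycan of cartilage. The P1 Back array with the highest Car9 also had the highest cartilage mean, 2.04, but replicate 6, at 1.76, had Car9 at 0.08.

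Other HIF targets were measured beside Car9. Of 32 measured genes on the list, 0 were higher and 7 lower in P1 Tail than in P1 Back, with a median of -0.13 against -0.04 over all genes. Between ages of the arrays labelled back, 1 was higher at P5 and 6 lower (median -0.16). Without P1 Back replicates 1 and 6, which keeps replicate 5 alone in that group, the medians were -0.20 between sites at P1 and -0.19 by age. Slc2a1, the glucose transporter of hypoxic and proliferating cells, had values of -0.54, 0.29 and -0.34 in P1 Tail, against 1.10, 1.48 and 1.40 in P1 Back, a difference of -1.53 (SE 0.20, adjusted p = 0.00072). At P5 it had 0.36, 0.06 and -0.06 in P5 Tail, against -0.64, -0.47 and -0.28 in P5 Back, a difference of 0.58 (adjusted p = 0.10). Unlike Car9, then, Slc2a1 was high on all 3 P1 Back arrays. At P5 the list split between the sites, 3 genes each way, led by Plin2, a lipid droplet protein, at 1.42 (SE 0.12, adjusted p = 2.3e-05).

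The other members of the membrane-bound branch, Car12 and Car14, moved little. Car12, a transmembrane enzyme of kidney, gut and sweat gland epithelia, had -0.12, 0.45 and 0.15 in P5 Tail, -0.24, 0.00 and -0.06 in P5 Back, -0.20, 0.09 and 0.04 in P1 Tail, against -0.15, 0.07 and 0.07 in P1 Back. Its 3 probe sets disagreed: at P5 they gave 0.66 (SE 0.18), 0.26 (SE 0.11) and -0.13 (SE 0.26), the first 2 with no overlap between groups, and r between them ran from -0.26 to 0.75. The gene mean thus hides a probe set that was higher in P5 Tail by 0.66. Car14, a transmembrane enzyme of brain, retina and muscle, had -0.20, -0.03 and -0.10 in P5 Tail, against 0.09, 0.29 and -0.02 in P5 Back, and 0.02, -0.04 and -0.12 in P1 Tail, against 0.07, 0.10 and 0.02 in P1 Back. At P1 the groups touched at 0.02 as rounded and did not overlap, and its differences of -0.23 at P5 and -0.11 at P1 had an SE of 0.10. Its only probe set carries a shared-sequence suffix.

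Car8 was the flattest member. Its product lacks carbonic anhydrase activity and binds the inositol trisphosphate receptor in Purkinje cells. It had -0.10, -0.10 and 0.08 in P5 Tail, 0.09, -0.01 and 0.07 in P5 Back, 0.05, -0.16 and -0.05 in P1 Tail, against 0.24, -0.04 and -0.10 in P1 Back. The site difference was -0.09 at both ages (SE 0.11 each), and all groups overlapped. Its 3 probe sets shared little, with r between 0.00 and 0.53. Values this flat, for Car8, Car12 and Car14, carry no information on whether the gene was expressed, because levels were removed by the centring.

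**Figure D3:**
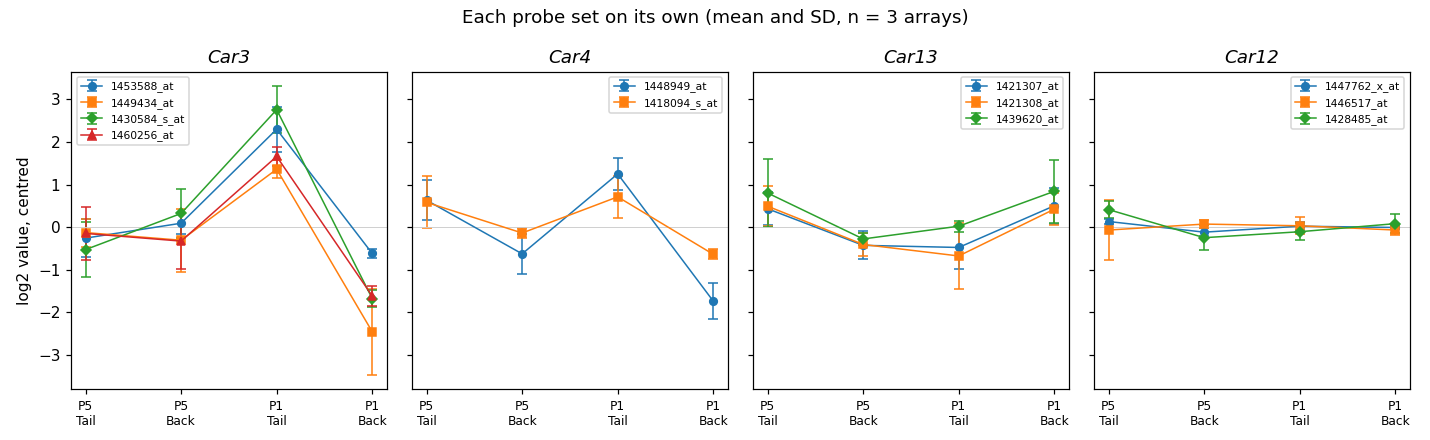
Group means of single probe sets (centred log2 values, vertical axis; error bars SD, n = 3 arrays) in P5 Tail, P5 Back, P1 Tail and P1 Back, for the members with several probe sets whose group means reached furthest from 0. The 4 Car3 probe sets peak together in P1 Tail, the Car4 pair differs in size, the 3 Car13 probe sets run alike, and those of Car12 part at P5.

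Counting over the 8, 1 member was past an adjusted p of 0.05 between sites at P5 (Car4, higher), where 6.91% of all genes were called, 4.30% higher and 2.61% lower. At P1 there were 2 (Car3 and Car4, higher), where 3.97% of all genes were called, 2.06% higher and 1.91% lower. By age, 1 was called in the arrays labelled tail (Car3, lower), beside 5.30% of all genes, 3.34% higher and 1.96% lower, and 1 in those labelled back (Car3, higher), beside 4.25%, 2.22% higher and 2.03% lower. For the difference of site differences, 2 were called, Car13 upward and Car3 downward, beside 2.87% of all genes, 1.93% upward and 0.94% downward. The Car4 call at P5 was lost on leaving out any of 5 of the 6 arrays, all but P5 Tail replicate 3, with array weights and with only the arrays compared. The Car13 call was lost on leaving out any of 9 of the 12 arrays, and without P1 Back replicates 1 and 6 together. The Car3 call in the arrays labelled back was lost without that pair of arrays. The members were chosen with these contrasts known, so nothing is read from the counts.

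Groups did not overlap for 5 members between sites at P5, 3 higher (Car2, Car4, Car13) and 2 lower (Car9, Car14), beside 20.6% of all genes, 11.0% higher and 9.58% lower. For Car9 the difference there was only -0.05 (SE 0.21), and its groups touched as rounded. At P1 they did not for 4, Car2, Car3 and Car4 higher and Car14 lower, beside 30.2%, 12.6% higher and 17.6% lower. By age 1 member did not overlap in the arrays labelled tail (Car3, lower), beside 19.4%, 11.1% higher and 8.34% lower. In those labelled back 4 did not, Car3 and Car4 higher and Car9 and Car13 lower, beside 28.0%, 14.4% higher and 13.6% lower. The median difference over the 8 was 0.08 at P5 and -0.05 at P1, against -0.02 and -0.04 over all genes.

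**Figure D4:**
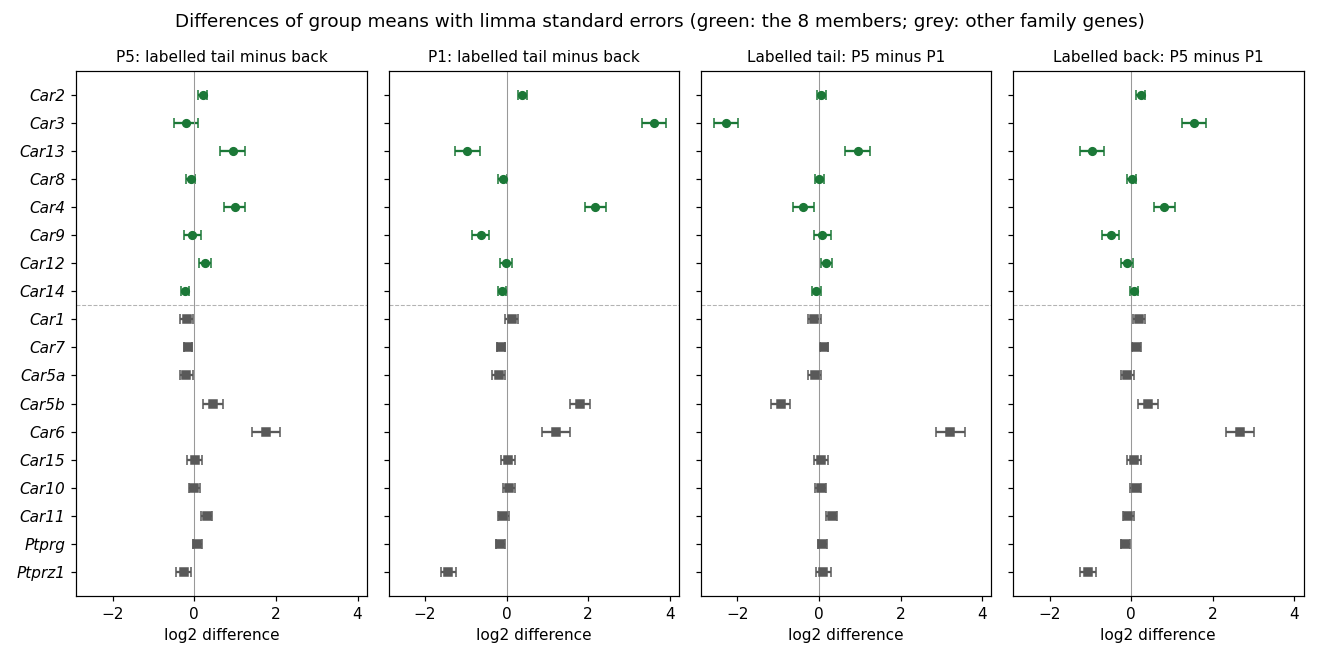
Differences of group means on the log2 scale (horizontal axes) with limma standard errors for the 8 members (green circles) and 10 other family genes (grey squares), between labelled sites at P5 and P1 and between ages at each labelled site. Car3 lies at 3.61 between sites at P1 and at -0.21 at P5, and Car6 is positive in all 4 panels.

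Among the 10 other family genes, the calls fell on Car5b, Car6 and Ptprz1. Between sites 1 of the 10 was called at P5 and 2 at P1, beside 6.91% and 3.97% of all genes. By age 2 were called in the arrays labelled tail and 2 in those labelled back, beside 5.3% and 4.25%. For the difference of site differences 1 was called, beside 2.87%. Car5b encodes a mitochondrial enzyme that supplies bicarbonate to carboxylases, and its pattern was close to Car4 (r = 0.93) and Car3 (r = 0.90). It had 0.77, -0.05 and 0.15 in P5 Tail, against -0.36, -0.09 and -0.05 in P5 Back, and 1.73, 0.96 and 0.99 in P1 Tail, against -0.28, -0.75 and -0.70 in P1 Back. At P1 the site difference was 1.80 (SE 0.24, adjusted p = 0.00076), with all 3 arrays labelled tail above all those labelled back, and at P5 it was 0.45 (adjusted p = 0.31). The difference between these did not pass the threshold (-1.35, adjusted p = 0.051). It was lower in P5 Tail than in P1 Tail by 0.94 (adjusted p = 0.038), a call that was lost without P5 Tail replicate 3 (adjusted p = 0.077) or 4 (0.078) or P1 Tail replicate 4 (0.15) or 6 (0.059). Its nearest genes were Hp (r = 0.974), Cidec (r = 0.959), a lipid droplet protein, and Plaat3 (r = 0.955), a phospholipase of fat cells. Its paralog Car5a, the liver form, was called in none of the 5 comparisons.

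Car6, the secreted enzyme of saliva and milk, had the widest range of the whole family, 5.70. Its values were 2.63, 3.19 and 2.05 in P5 Tail, 0.30, 1.04 and 1.25 in P5 Back, -1.06, -0.42 and -0.30 in P1 Tail, against -1.39, -1.53 and -2.50 in P1 Back. The groups followed each other in that order with no overlap. The age difference was 3.22 in the arrays labelled tail (SE 0.35, adjusted p = 0.00025) and 2.67 in those labelled back (SE 0.35, adjusted p = 0.00097), and these did not differ past the threshold (0.55, adjusted p = 0.69). Without P1 Back replicates 1 and 6 the difference in those labelled back was 2.40, and the call was lost. Between sites it was 1.76 at P5 (SE 0.35, adjusted p = 0.0088, or 0.073 with array weights) and 1.21 at P1 (SE 0.35, adjusted p = 0.086). Its nearest genes were Scd1, a fatty acid desaturase of sebaceous glands (r = 0.966), Atp12a (r = 0.966) and Elovl3, a fatty acid elongase of sebaceous glands (r = 0.965). Of 6 measured sebaceous gland markers, 6 were higher in P5 Tail than in P1 Tail (median 2.06), 2 in P5 Back than in P1 Back (median 0.69) and 4 in P5 Tail than in P5 Back (median 1.34), with 0 lower. Between ages in the arrays labelled back, the median was 0.51 without P1 Back replicates 1 and 6. Their mean lay between 1.11 and 2.03 in P5 Tail, against between 0.13 and 0.25 in P5 Back, and between -0.23 and -0.11 in P1 Tail, against between -0.78 and -0.38 in P1 Back. The part of sebaceous gland cells in the values of Car6 was not tested.

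Ptprz1, a receptor phosphatase with a carbonic anhydrase-like outer domain, was high in P1 Back. It had -0.18, -0.04 and -0.52 in P5 Tail, 0.05, -0.20 and 0.19 in P5 Back, -0.70, 0.06 and -0.43 in P1 Tail, against 0.83, 1.11 and 1.27 in P1 Back. The difference between sites at P1 was -1.43 (SE 0.19, adjusted p = 0.00090). P5 Back was lower than P1 Back by 1.06 (SE 0.19, adjusted p = 0.0075), a call lost without P1 Back replicates 1 and 6. It was correlated with Car4 at r = -0.88. Car1, Car7, Car15, Ptprg and the catalytically silent Car10 and Car11 were called in no comparison by limma; with Car5a, 2 of their 35 values were at an unadjusted p under 0.05, both for Car11.

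**Figure D5:**
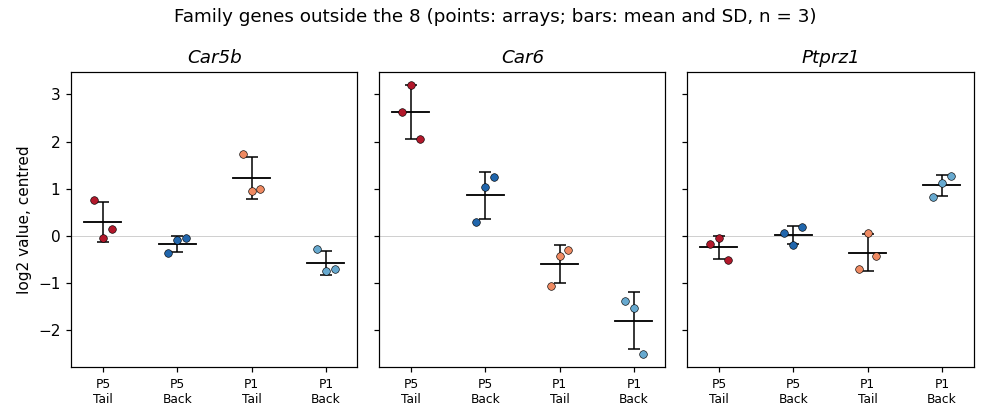
Centred log2 values (vertical axis) of Car5b, Car6 and Ptprz1 in P5 Tail, P5 Back, P1 Tail and P1 Back; points are arrays, the long bar is the mean and the error bar the SD (n = 3). Car5b peaks in P1 Tail, Car6 descends over the 4 groups in the order drawn, and Ptprz1 is highest in P1 Back.

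The genes that carry, use or balance the products of these enzymes were grouped with the 10 other family genes as acid-base partners, 89 of 96 measured. Between sites, 9 were higher and 2 lower at P5, beside 4.3% and 2.61% of all genes. At P1, 5 were higher and 2 lower, beside 2.06% and 1.91%. By age, 8 were higher and 2 lower at P5 in the arrays labelled tail, beside 3.34% and 1.96%. In those labelled back 4 were higher and 3 lower, beside 2.22% and 2.03%. The median differences of the partners were 0.04, -0.04, 0.08 and 0.05, against -0.02, -0.04, 0.04 and 0.01 over all genes. The counts depended on single arrays: the P5 site count was 22 without P5 Tail replicate 4, the P1 site count 4 without P1 Back replicate 6, the tail age count 5 without P1 Tail replicate 4 or 6, and the back age count 3 without P5 Back replicate 2 and 4 without P1 Back replicate 6. Without P1 Back replicates 1 and 6 together, the partner medians were -0.07 between sites at P1 and 0.04 by age in the arrays labelled back.

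The partners with the largest site differences at P5 were Atp12a, Atp6v1c2 and Car6. Atp12a, the catalytic chain of a proton-potassium pump, had 2.66, 3.30 and 2.14 in P5 Tail, against -0.02, 0.86 and 0.52 in P5 Back, a difference of 2.25 (SE 0.29, adjusted p = 0.00054). It was higher in P5 Tail than in P1 Tail by 3.04 (adjusted p = 0.00012). A pair of subunits of the vacuolar proton pump were higher in P5 Tail than in P5 Back, Atp6v1c2 by 1.81 (SE 0.22, adjusted p = 0.00027) and Atp6v1b1 by 1.29 (SE 0.23, adjusted p = 0.0047). Slc16a1, a lactate and proton carrier, was higher in P5 Tail than in P5 Back by 0.82 (SE 0.14, adjusted p = 0.0038). Of the 37 measured proton and lactate transporters, 4 were higher and 0 lower in that comparison. The other 33, which include all other measured vacuolar pump subunits, were not called. The list median was 0.06, against -0.02 over all genes.

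Of 19 measured bicarbonate transporters, 1 was higher and 1 lower between sites at P5, and 0 were higher and 1 lower at P1. Slc26a7, a chloride and bicarbonate exchanger, had -1.27, -1.41 and -0.87 in P5 Tail, 0.07, -0.58 and -0.30 in P5 Back, 0.38, 0.09 and 0.10 in P1 Tail, against 0.71, 0.71 and 0.44 in P1 Back. It was lower in P5 Tail than in P5 Back by 0.91 (SE 0.18, adjusted p = 0.0076) and lower in P5 Tail than in P1 Tail by 1.37 (SE 0.18, adjusted p = 0.00077). P5 Tail was the lowest of the 4 groups for this gene and the highest for Atp12a. The transporter higher in P5 Tail than in P5 Back was Cftr, a chloride and bicarbonate channel, by 0.60 (adjusted p = 0.025, or 0.11 without P5 Back replicate 3). The one lower in P1 Tail than in P1 Back was Slc4a9, by 0.62 (adjusted p = 0.011), a call lost without P1 Back replicates 1 and 6.

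At P1 the partner with the largest difference was Aqp7, a water and glycerol channel of fat cells that is also on the adipocyte list, with 1.71, 0.45 and 0.65 in P1 Tail, against -1.40, -0.95 and -1.08 in P1 Back. The difference was 2.08 (SE 0.36, adjusted p = 0.0046), a call lost without P1 Back replicates 1 and 6. Aqp9, another water and glycerol channel, was higher in P5 Tail than in P5 Back and than in P1 Tail, by 1.24 in both comparisons (adjusted p = 0.025 and 0.031, or up to 0.094 and 0.13 with 1 array left out). Rhbg, an ammonia channel, was higher in P5 Tail than in P1 Tail by 0.81 (adjusted p = 0.044, or up to 0.18 with 1 array left out).

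Enzymes that use bicarbonate were measured by 10 genes. Cps1, encoding the carbamoyl phosphate synthase that opens the urea cycle, was higher in P1 Tail than in P1 Back by 0.91 (SE 0.22, adjusted p = 0.034) and in P5 Back than in P1 Back by 1.03 (SE 0.22, adjusted p = 0.016). Both calls were lost without P1 Back replicate 1 or 6 (adjusted p = 0.13 for either at P1, 0.077 and 0.070 by age). Adcy10, the soluble adenylyl cyclase that bicarbonate activates, was lower in P5 Tail than in P5 Back by 0.56 (adjusted p = 0.015, or 0.067 without P5 Back replicate 1). Pcx, encoding pyruvate carboxylase, was higher in the arrays labelled tail by 1.02 at P5 (SE 0.20, adjusted p = 0.0088), and by 0.85 at P1 (SE 0.20, adjusted p = 0.034), where the call was lost on leaving out any 1 of the 6 arrays (adjusted p up to 0.14). Acacb, an acetyl-CoA carboxylase of the mitochondrial membrane, was higher in P5 Tail than in P5 Back by 0.76 (SE 0.11, adjusted p = 0.0015), while at P1 the difference was -0.06 (adjusted p = 0.87).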

How the data were processed

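Dermis of 4 groups, each from 3 mice, was hybridised to 1-colour Affymetrix MG430.2A arrays. The authors ran RMA in GeneSpring. The deposited values are log2 values as RMA gives them (no source states the base), and each of 45101 probe sets has its median over the 12 arrays set to 0 within 1e-06. Array medians ran from -0.0232 to 0.0141 and were left as they were. The methods' filter on weak genes could not be repeated on centred values. Of 45037 probe sets left without 64 controls, 34945 carried a single symbol, 932 more than 1 and 9160 none here. RefSeq gene identifiers matched 34741 of these single-symbol probe sets, with 0 symbols changed. Probe sets of a gene were averaged, 9010 of 18193 genes having more than 1.

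All arrays were fitted in 4 groups with limma 3.58.1 in R 4.3.3, with Benjamini-Hochberg adjustment over all genes (threshold 0.05). The procedure was tested on simulated data. P-values measure the spread between arrays of different mice within a group, and precision is limited by the 3 arrays a group. Whether tail and back arrays came from the same mice is not stated. The members and the 22 other lists (310 of 339 listed genes measured) were chosen with earlier results of these arrays known. Members therefore have no p-values. Counts at an unadjusted p under 0.05 are given without the share of all genes and are a description. Named are all members and family genes and, from the following, those the text turns on: for each partner list and comparison up to 4 called genes each way by size of difference, the 4 largest of each other list, and the 3 genes with the highest r to each member; the genes nearest to Car5b and Car6 were named after their values were seen. Same-numbered arrays of both sites were not taken as pairs. Alternatives were limma's array weights, robust variances, medians of probe sets, arrays centred on their medians, a replicate block and a fit to only the arrays compared. Others were the methods' unpaired t-test, suffixed probe sets or genes of small range left out, 1 array left out at a time, and P1 Back replicates 1 and 6 left out. The methods name that t-test for quantitation in general, and no test for the arrays. The last alternative keeps replicate 5 alone in P1 Back, so it has no spread within that group.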

Additional observations from a re-analysis of the deposited data

Results flagged for a closer look

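Groups of 3 arrays are too small for a formal test of single arrays, and those that stood apart are given with the samples above. Among the genes that are not members, 5 acid-base partners had a site difference that itself differed between ages. This was tested as the interaction of site and age in limma with adjustment over all genes, where 2.87% of all genes were called. Each value is the difference of labelled tail minus labelled back at P5 minus that at P1. For Slc16a1 it was 1.29 (adjusted p = 0.0047), with site differences of 0.82 at P5 and -0.48 at P1. For Atp6v1c2 it was 1.67 (adjusted p = 0.011), with 1.81 at P5 and 0.14 at P1, and for Acacb 0.82 (adjusted p = 0.017), with 0.76 at P5 and -0.06 at P1. For Slc16a7, a pyruvate and lactate carrier, it was -0.87 (adjusted p = 0.030), with -0.09 at P5 and 0.78 at P1.

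For Ptprz1 the value was 1.17 (adjusted p = 0.039), with site differences of -0.26 at P5 and -1.43 at P1. With the replicate number as a block Slc16a1 alone of the 5 was called. The adjusted p was 0.12 for Atp6v1c2, 0.10 for Acacb, 0.094 for Slc16a7 and 0.092 for Ptprz1. Only arrays whose number occurs at both sites, 2 and 3 at P5 and 5 and 6 at P1, inform that fit. A call lost in it can therefore come from having fewer arrays. The 5 calls were lost without P1 Back replicates 1 and 6. That fit keeps replicate 5 alone in P1 Back, so having fewer arrays and the content of those left out cannot be told apart. Leaving out 1 array raised the adjusted p to at most 0.02 for Slc16a1, 0.041 for Atp6v1c2, 0.057 for Acacb (without P1 Back replicate 5), 0.095 for Slc16a7 (without P1 Back replicate 6) and 0.12 for Ptprz1 (without P1 Back replicate 6). The suprabasal epidermis markers had a median of 2.17 for this quantity over 15 genes, with the sign of all of these genes but Slc16a7. Other lists shared that sign, such as sebaceous gland (1.10), cartilage (1.08) and basal epidermis markers (0.95). Others had the opposite sign, such as adipocyte (-1.14) and skeletal muscle markers (-1.04). The part of these cells was not tested.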

How the results depend on the processing

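Differences of the 8 members kept their size within the spread between arrays in 332 of 342 alternative values. With 1 array left out they did so in 285 of 288. Robust variances, only the arrays compared, the methods' t-test and leaving out genes of small range cannot change a difference of group means. These alternatives are included in the 342, so part of that count was fixed in advance. None of the differences called changed direction. The exceptions were as follows. Without suffixed probe sets, Car4 was at 3.00 between sites at P1 and at -1.74 for the interaction of site and age, and Car3 at -3.33 for the interaction. Without P1 Back replicates 1 and 6, Car2 was at 0.60 between sites at P1, 0.45 by age in arrays labelled back and -0.39 for the interaction. With the block, Car3 was at -0.72 between sites at P5 and -4.28 for the interaction, and Car9 at -0.26 between sites at P1 and 0.20 for the interaction. The block takes site differences at P1 from numbers 5 and 6 only, so it also sets P1 Back replicate 1 aside. Without P1 Back replicate 1, Car9 was at -0.32, -0.19 and 0.27 between sites at P1, by age in arrays labelled back and for the interaction.

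The counts of called members were small and moved easily. Between sites at P5 the count of 1 was 0 with array weights, 0 with only the arrays compared and 2 without the 20% of genes of smallest range, and at P1 the count of 2 was 5 with array weights. By age in arrays labelled back the count of 1 was 3 with array weights and 3 with only the arrays compared. The interaction count of 2 was 1 without those 2 arrays, Car3 remaining and Car13 lost. The methods' t-test, which the authors name for quantitation in general and not for the arrays, was run here with adjustment over all genes. It called 0 members and 0 partners in all 4 comparisons of groups. Each such test takes its spread from only the arrays of the groups compared, which limits what it can call. At an unadjusted p under 0.05 it called 3, 3, 1 and 3 members, and 11, 21, 9 and 23 partners. These are for sites at P5 and P1, then for ages in arrays labelled tail and back. The share of all genes called is not given for this test or the other alternatives. The counts are therefore not read as results about these genes. With 1 array left out, the counts of members ran from 0 to 1 between sites at P5, from 2 to 3 at P1, and from 1 to 2 by age at each site and for the interaction. The 0 at P5 came without P5 Tail replicate 2 or P5 Back replicate 1, 2 or 3.

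For acid-base partners, array weights gave 6 for 11 between sites at P5, 23 for 7 at P1, 6 for 10 by age in arrays labelled tail, 15 for 7 in those labelled back, and 8 for 5 in the interaction. Without suffixed probe sets the P5 site count was 7. With only the arrays compared the tail age count was 5. Without the genes of smallest range the interaction count was 9. Leaving out P1 Back replicates 1 and 6, a choice made after seeing the data, keeps replicate 5 alone in P1 Back. Counts from that fit are therefore not set beside the others. With 1 array left out the counts ran from 8 to 22 and from 4 to 6 between sites at P5 and P1, from 5 to 15 and from 3 to 7 by age in arrays labelled tail and back, and from 2 to 8 in the interaction. The causes of these changes were not tested.

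With the replicate number as a block the member called between sites at P5 was Car13 in place of Car4, and the interaction count of partners was 3, Slc16a1, Aqp9 and Atp6v1b1. Site differences in that fit rest only on numbers found at both sites, 2 and 3 at P5 and 5 and 6 at P1. Changes with the block can therefore come from having fewer arrays. The deviations of same-numbered arrays correlated at 0.213 and -0.053 at P5 and at 0.234 and 0.009 at P1. Those of differently numbered arrays ran from -0.159 to 0.181 at P5 and from -0.286 to 0.276 at P1. The labels do not say whether same-numbered arrays came from the same mice, and so few correlations cannot decide it. The numbers were not taken as pairs in the main fit.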
